A study of Mus musculus with 12 samples.

Results

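Tissue factor (F3), its inhibitor Tfpi and the related inhibitor Tfpi2, thrombomodulin (Thbd), the plasminogen activators Plat and Plau, the urokinase receptor Plaur, the protease inhibitor Serpine2 and the factor XIII A subunit (F13a1) were followed in mouse fetal membranes. These 9 genes were taken by symbol from a count table of 48795 annotated genes. All 9 had enough counts to be tested, as did 18153 genes of the table. Membranes were sequenced as 12 bulk RNA libraries, 3 in each of 4 groups. The E18 DKO and E12 DKO groups lack biglycan (Bgn) and decorin (Dcn), both collagen-binding proteoglycans, and came from C3H and C57BL/6 mice at embryonic day 18 or 12. The E18 WT and E12 WT groups are wild-type C3H mice of the same labelled days. Strain therefore goes with genotype, and the effects of strain and of the knockout cannot be told apart. The labels do not say whether the 3 libraries of a group are separate animals or litters, so p-values measure only the spread between these libraries. The comparisons ask how loss of both proteoglycans and the stage of gestation relate to membrane expression.

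Coagulation starts when tissue factor on a cell surface meets circulating factor VII, and it ends when thrombin makes fibrin and factor XIII cross-links it. Tfpi holds back the first step, thrombomodulin turns thrombin towards activation of the anticoagulant protein C, and plasmin, made from plasminogen by tissue-type (Plat) or urokinase-type (Plau) activator, dissolves the fibrin. Human fetal membranes and decidua are rich in tissue factor, and pericellular plasmin is also known to break down matrix proteins.

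The genotype labels matched the targeted genes. DKO over WT, Bgn was at -3.52 (log2) at E18 and -4.81 at E12, and Dcn at -6.61 and -5.95, all with an adjusted p under the threshold of 0.05. The stage label of the E18 WT libraries is in doubt: embryonic forms were 74.8 to 87.8% of their beta-globin counts, against 1.33 to 2.67% in E18 DKO, 82.3 to 85.1% in E12 DKO, and 14.8, 95.1 and 97.1% in E12 WT libraries 1, 2 and 3. E12 WT 1 thus stood apart from its group. E18 WT 3 held 1094 CPM of trophoblast and decidua markers in sum, where every other library held at most 62.1 CPM, and E12 WT 3 had a mitochondrial share of 21.2%, where the other libraries had 3.58 to 7.78%. Markers of yolk sac endoderm, amnion-type epithelium and mesenchyme were present in all 12 libraries. Below, "labelled E18 WT" recalls the doubt. By beta-globin, E18 DKO and labelled E18 WT also differ in apparent stage. A difference in stage between them cannot be told apart from the effects of strain and of the knockout. Levels are CPM, each count over its library size after trimmed-mean (TMM) scaling, and total counts were 19967593 to 33065424 per library.

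F3, the initiator of coagulation, and Plaur, the receptor that holds urokinase at the cell surface, were several-fold higher in E18 DKO membranes than in both labelled E18 WT and E12 DKO membranes. Tfpi2 was lower in E18 DKO than in both. Plau passed the test for E18 DKO over E12 DKO and missed it over labelled E18 WT. F13a1 was the single gene of the 9 that passed the test between DKO and WT at E12. Tfpi, Serpine2, Plat and Thbd passed it in none of the comparisons.

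**Figure D1:**
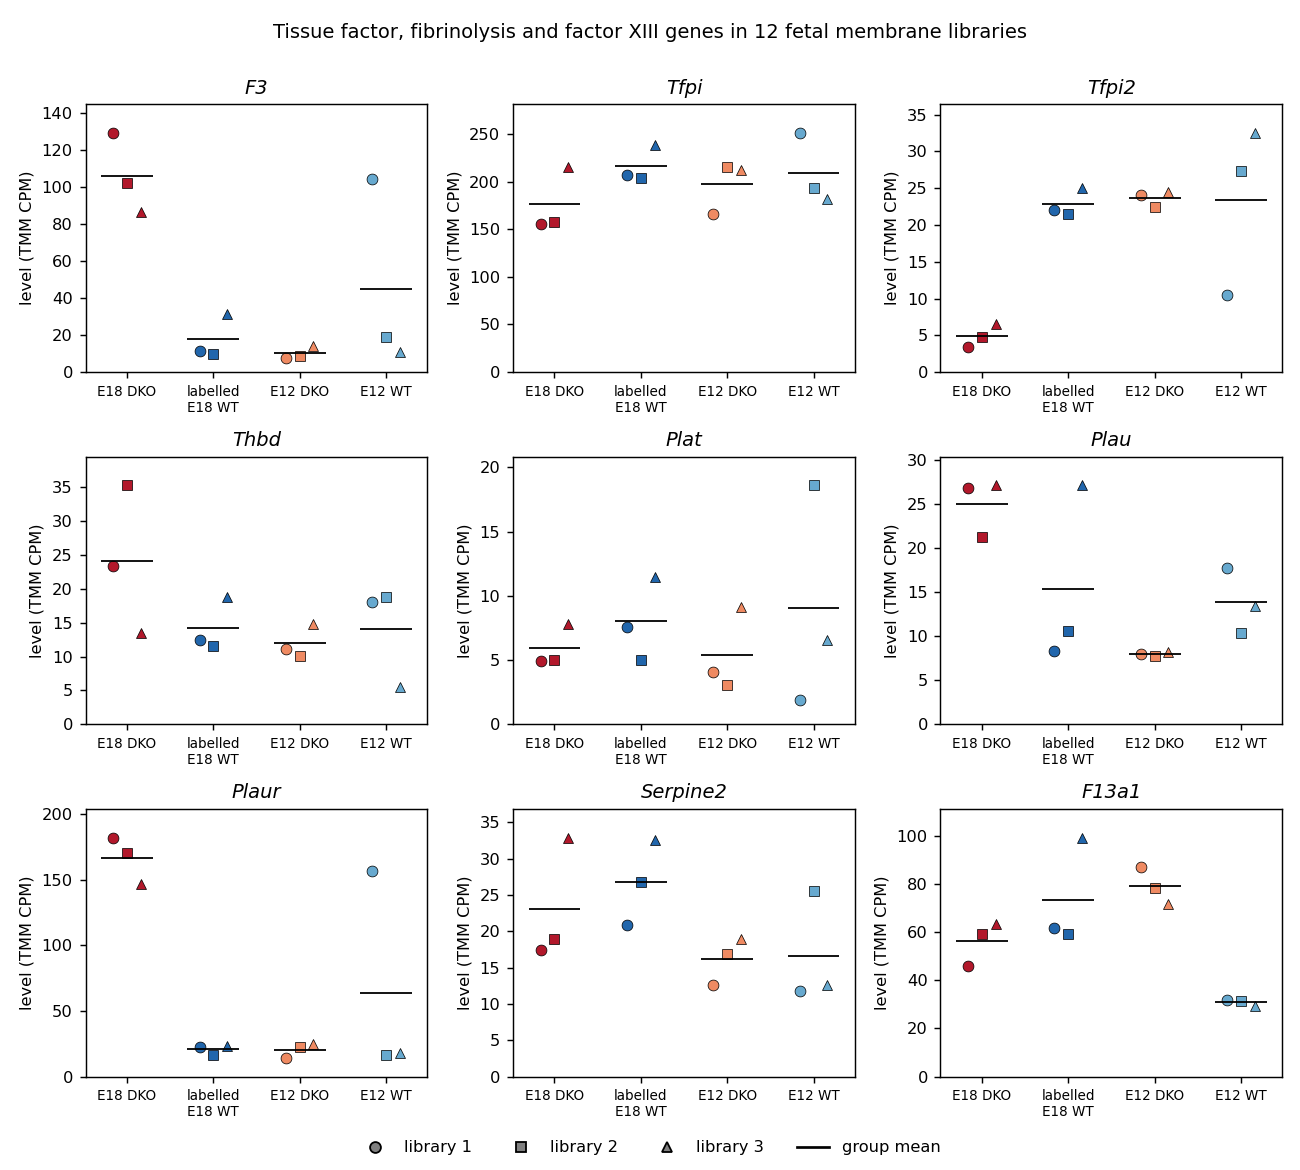
Level in CPM (vertical axes, linear from 0) of each of the 9 genes in the 12 libraries. Points are libraries 1 to 3 of each group and bars are group means; F3 and Plaur are high in all E18 DKO libraries and in E12 WT 1, Tfpi2 is low in E18 DKO, and F13a1 is low in E12 WT.

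In the E18 DKO libraries F3 (chromosome 3, 121723537 to 121735048, plus strand, GRCm38) measured 129, 102 and 86.5 CPM, against 11.5, 9.96 and 31.6 CPM in the labelled E18 WT libraries. The groups did not overlap, and E18 WT 3, the library with the high sum of trophoblast and decidua markers, was the highest of the labelled E18 WT set. The log2 fold change was 2.58 ± 0.75 (SE from the fit of all 12 libraries, n = 3 per group, edgeR adjusted p = 0.0175), a 5.98-fold difference. The call was lost without E18 WT 1 (2.34, edgeR adjusted p = 0.0659) or E18 WT 2 (2.29, 0.0678).

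Within the knockout the contrast was wider. E12 DKO libraries held 7.62, 8.71 and 13.8 CPM of F3, all below every E18 DKO library. E18 DKO was 10.5-fold higher than E12 DKO (log2 fold change 3.39 ± 0.78, edgeR adjusted p = 0.0049), and the call held in all 21 alternative analyses. The E12 WT libraries held 104, 19.1 and 10.6 CPM. Library 1 of that group, which carried mostly adult beta-globin, was at the level of the E18 DKO libraries, and the other two were near those of E12 DKO. At E12 the F3 difference between DKO and WT was -2.15 ± 0.74 with an edgeR adjusted p of 0.125, and -0.56 without E12 WT 1. The DESeq2 test called it (-2.14, adjusted p 0.0263). The order of group means was E18 DKO at 106 ± 21.5, E12 WT at 44.5 ± 51.6, labelled E18 WT at 17.7 ± 12.1 and E12 DKO at 10 ± 3.29 CPM (SD, n = 3), and each neighbouring pair in it overlapped.

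The stretches just upstream of F3, Plaur and Tfpi2 are shown because these 3 genes passed the test in both comparisons that involve E18 DKO. They are the 250 bases before the RefSeq transcript start on the GRCm38.p6 reference (a C57BL/6J genome, not the C3H sequence), each read along its own strand. They lie at chr3:121723287-121723536 (plus strand) for F3, chr7:24462233-24462482 (plus) for Plaur and chr6:3968376-3968625 (minus) for one of the annotated Tfpi2 starts. Capitals mark TGANTCA, with N any base, which reads the same on both strands. It is looser than the AP-1 type motif, which has C or G at N. The Plaur match, TGACTCA, and the F3 match 135 bases before the start, TGAGTCA, have that form. TGAATCA, the Tfpi2 match and the other F3 match, does not.
F3 upstream: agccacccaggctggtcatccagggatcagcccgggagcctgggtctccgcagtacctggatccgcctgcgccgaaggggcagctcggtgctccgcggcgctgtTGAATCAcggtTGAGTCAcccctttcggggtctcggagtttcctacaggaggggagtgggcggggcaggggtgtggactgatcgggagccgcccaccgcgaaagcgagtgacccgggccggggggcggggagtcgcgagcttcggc
Plaur upstream: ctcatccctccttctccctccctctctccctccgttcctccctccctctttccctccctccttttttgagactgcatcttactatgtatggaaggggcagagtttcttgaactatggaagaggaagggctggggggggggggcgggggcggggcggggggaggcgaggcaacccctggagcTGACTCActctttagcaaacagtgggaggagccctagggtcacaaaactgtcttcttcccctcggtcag
Tfpi2 upstream: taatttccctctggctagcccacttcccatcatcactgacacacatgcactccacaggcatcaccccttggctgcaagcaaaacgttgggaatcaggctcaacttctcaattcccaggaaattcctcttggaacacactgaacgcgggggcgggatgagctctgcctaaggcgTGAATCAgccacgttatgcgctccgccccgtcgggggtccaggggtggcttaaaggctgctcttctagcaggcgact
TGANTCA starts 146 and 135 bases before the start of F3, 69 bases before that of Plaur and 77 bases before that of Tfpi2. RefSeq windows were found for 6 of the 9 genes, 10 windows in all, and the 3 windows shown were the ones with TGANTCA. The windows of the other annotated Tfpi2 starts, chr6:3988859-3989108 and chr6:3988937-3989186, did not hold it. Of 32851 mouse windows of the same length, 6.75% held it and 0.338% held it at least at 2 places, as the F3 window does. GGGCGG, the core of a GC box, was found on either strand 3 times in the F3 window, 3 times in that of Plaur and 2 times in that of Tfpi2, and 32.7% of all windows held it. TATAAA was in none of the 3, against 12.4% of all windows. The Tfpi2 window shown holds TGANTCA although Tfpi2 was lower where F3 and Plaur were higher. These are matches of letters and say nothing of binding.

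Tfpi, the inhibitor of tissue factor with factor VIIa and of factor Xa (chromosome 2, 84432855 to 84476775, minus strand), was the most even of the 9. It measured 155, 158 and 215 CPM in E18 DKO and 207, 204 and 238 CPM in labelled E18 WT. E12 DKO libraries held 166, 215 and 212 CPM and E12 WT libraries 251, 193 and 182 CPM. All groups overlapped, and the highest library exceeded the lowest by 1.61 times, the smallest range among the 9 genes. The difference at E18 was -0.30 ± 0.19 (edgeR adjusted p = 0.232). With library size alone in place of TMM, which moved the median of all genes to -0.41, the E18 difference of Tfpi became -0.67 (edgeR adjusted p = 0.0131) and that of E18 DKO over E12 DKO -0.52 (0.0373).

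The proportion of initiator to inhibitor varied mostly with F3. Per kilobase of exon, which allows levels of different genes to be set side by side, F3 over Tfpi was 1.79, 1.39 and 0.872 in E18 DKO, against 0.12, 0.106 and 0.287 in labelled E18 WT. It was 0.0991, 0.0876 and 0.141 in E12 DKO and 0.896, 0.213 and 0.126 in E12 WT. More F3 than Tfpi transcript per kilobase was seen in E18 DKO libraries 1 and 2, and in no other library.

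**Figure D2:**
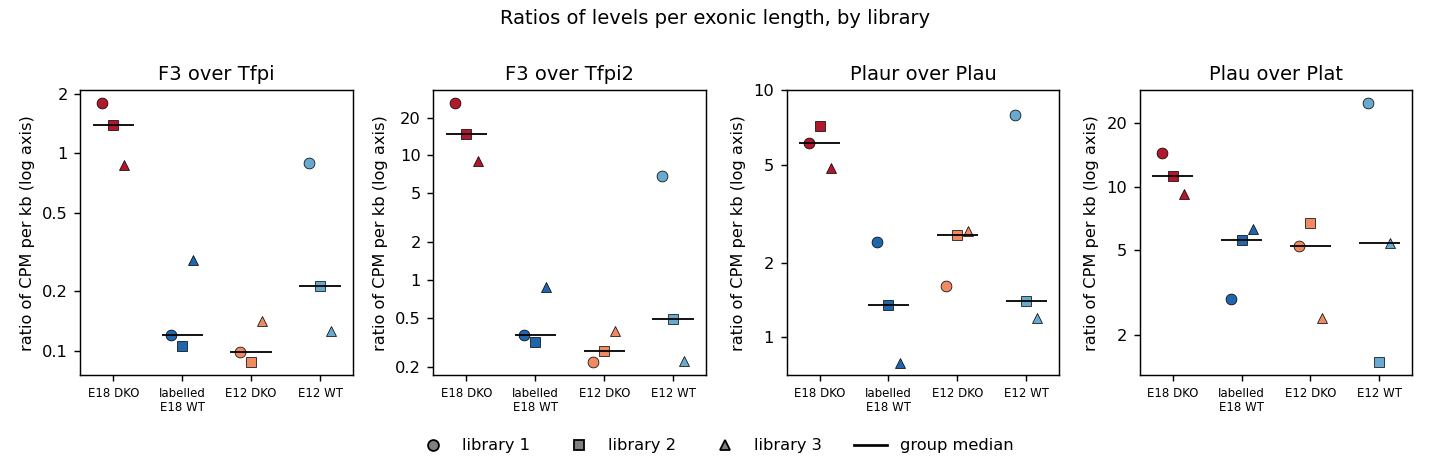
Ratios of CPM per kilobase of exon (vertical axes, log scale) in the 12 libraries, for F3 over Tfpi, F3 over Tfpi2, Plaur over Plau and Plau over Plat. Points are libraries and bars group medians; the median F3 to Tfpi ratio is 1.39 in E18 DKO and 0.12 in labelled E18 WT.

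Tfpi2 resembles Tfpi in structure but inhibits mainly plasmin and other serine proteases of the matrix, and in humans it is abundant in placenta. Tfpi2 (chromosome 6, 3962595 to 3988919, minus strand) measured 3.41, 4.78 and 6.59 CPM in E18 DKO, against 22, 21.5 and 25 CPM in labelled E18 WT. All E18 DKO libraries lay below all of the wild type. The log2 fold change was -2.21 ± 0.37 (edgeR adjusted p = 0.00104), and it passed the test in all 21 alternatives, between -2.00 and -2.59.

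E12 DKO held Tfpi2 at 24.1, 22.4 and 24.5 CPM, so E18 DKO was lower than E12 DKO as well (-2.26 ± 0.37, edgeR adjusted p = 0.000797). E12 WT libraries measured 10.5, 27.3 and 32.5 CPM, with E12 WT 1 the lowest. At E12 the difference between DKO and WT was 0.01 ± 0.35 (edgeR adjusted p = 0.987). The lowest group mean, 4.92 ± 1.6 CPM in E18 DKO, was the one clear step in the order of the 4 groups. Tfpi2 and F3 had the least similar profiles of any pair among the 9 (root mean square difference 2.43 log2 units over 12 libraries), and their ratio per kilobase had a median of 14.7 in E18 DKO, against 0.362 in labelled E18 WT.

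Thbd, the thrombin receptor of endothelium (chromosome 2, 148404466 to 148408188, minus strand), measured 23.4, 35.3 and 13.5 CPM in E18 DKO and 12.4, 11.6 and 18.8 CPM in labelled E18 WT. It measured 11.2, 10.1 and 14.8 CPM in E12 DKO and 18, 18.8 and 5.47 CPM in E12 WT. Every pair of groups overlapped. E18 DKO over E12 DKO was 1.00 ± 0.45 (log2, edgeR adjusted p = 0.0886), and it passed the test without E18 DKO 3 (1.29, 0.0461) or E12 WT 3 (1.00, 0.028) and in the fit of these 2 groups alone (1.01, 0.0343). The 10 endothelial markers summed to 452 to 537 CPM in E18 DKO, 237 to 421 in labelled E18 WT, 252 to 306 in E12 DKO and 337 to 383 in E12 WT. Singly, 3 were higher and 1, Kdr, lower in E18 DKO than in labelled E18 WT, against 20.5% and 21.8% of all tested genes. Over E12 DKO 6 were higher and 0 lower, against 23.2% and 22.8%.

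Turning to fibrinolysis, Plaur (chromosome 7, 24462484 to 24475968, plus strand) had 182, 170 and 147 CPM in E18 DKO, against 22.5, 16.1 and 23.7 CPM in labelled E18 WT. E12 DKO had 14.3, 22.3 and 24.6 CPM and E12 WT 157, 16.2 and 17.8 CPM. All E18 DKO libraries lay above all labelled E18 WT and all E12 DKO libraries, and E12 WT 1 lay inside the E18 DKO range. E18 DKO was 8.01-fold higher than labelled E18 WT (log2 fold change 3.00 ± 0.74, edgeR adjusted p = 0.00796). It was 8.15-fold higher than E12 DKO (3.03 ± 0.74, edgeR adjusted p = 0.00691). Both calls held in all 21 alternatives. At E12, DKO over WT was -1.64 ± 0.71 (edgeR adjusted p = 0.186), and without E12 WT 1 it was 0.27.

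Plau, the urokinase that Plaur binds (chromosome 14, 20836662 to 20843388, plus strand), measured 26.8, 21.2 and 27.1 CPM in E18 DKO. It measured 8.29, 10.6 and 27.1 CPM in labelled E18 WT, where library 3 alone reached the E18 DKO level. E12 DKO was even, at 8.02, 7.73 and 8.2 CPM, and E12 WT measured 17.7, 10.4 and 13.4 CPM. E18 DKO exceeded E12 DKO 3.14-fold (log2 1.65 ± 0.39, edgeR adjusted p = 0.00554), with no overlap and in all 21 alternatives. Against labelled E18 WT the difference was 0.71 ± 0.38 (edgeR adjusted p = 0.151), and without E18 WT 3 it was 1.40 (0.00309; 0.000357 with E12 WT 1 omitted too). At E12 the DKO libraries all lay below the WT libraries, with a difference of -0.79 ± 0.38 (edgeR adjusted p = 0.227).

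Receptor and ligand did not keep a fixed proportion. Plaur over Plau per kilobase was 6.09, 7.15 and 4.85 in E18 DKO, against 2.43, 1.35 and 0.784 in labelled E18 WT. It was 1.6, 2.58 and 2.69 in E12 DKO and 7.95, 1.4 and 1.19 in E12 WT. E18 DKO and E12 WT 1 again formed the high end.

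Plat, the tissue-type activator (chromosome 8, 22757727 to 22782844, plus strand), was the lowest of the 9 per kilobase, with a median of 0.932 CPM per kb over the 12 libraries, against 5.12 for Plau. It measured 4.95, 5.03 and 7.79 CPM in E18 DKO and 7.54, 5.04 and 11.5 CPM in labelled E18 WT. It measured 4.08, 3.05 and 9.14 CPM in E12 DKO and 1.89, 18.6 and 6.59 CPM in E12 WT. The E12 WT libraries spanned both extremes of the whole series, from 43 counts in library 1, the lowest count of any of the 9 genes, to 522 in library 2. No group difference passed the test, with edgeR adjusted p between 0.524 and 0.913 in the comparisons of groups. Plau over Plat per kilobase was 9.28 to 14.4 in E18 DKO, 2.93 to 6.28 in labelled E18 WT, 2.39 to 6.75 in E12 DKO and 1.48 to 24.8 in E12 WT.

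Serpine2, also called protease nexin, blocks thrombin and both plasminogen activators (chromosome 1, 79794197 to 79861180, minus strand). Its libraries ranged from 17.4 to 32.9 CPM in E18 DKO, 20.9 to 32.6 in labelled E18 WT, 12.6 to 19 in E12 DKO and 11.8 to 25.5 in E12 WT. Every labelled E18 WT library lay above every E12 DKO library, and the other pairs of groups overlapped. The widest difference was labelled E18 WT over E12 WT, at 0.68 ± 0.34 (log2, edgeR adjusted p = 0.322). The lowest adjusted p was that of E18 DKO over E12 DKO, at 0.52 (edgeR adjusted p = 0.235).

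**Figure D3:**
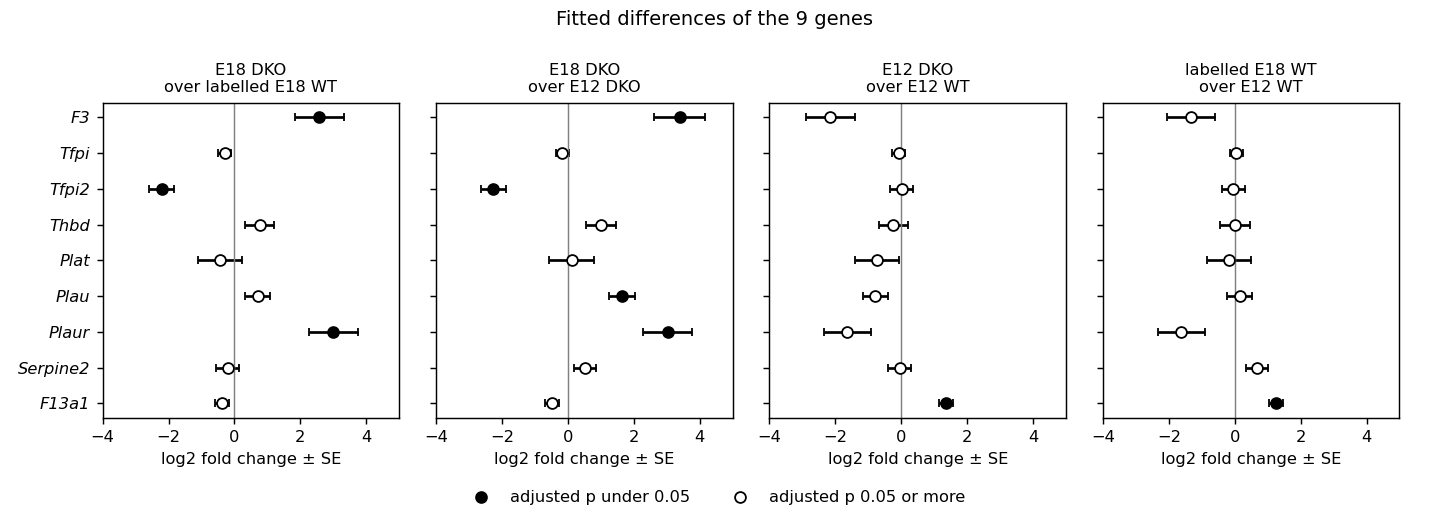
Log2 fold change (horizontal axes) with its SE for the 9 genes in 4 comparisons between groups of 3 libraries, from edgeR. Each SE is derived from the test statistic of the fit of all 12 libraries. Filled points have an adjusted p under 0.05; they are F3, Plaur and Tfpi2 for E18 DKO over labelled E18 WT, those and Plau for E18 DKO over E12 DKO, and F13a1 in the others.

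F13a1 encodes the catalytic A subunit of factor XIII, the transglutaminase that cross-links fibrin, and tissue macrophages and megakaryocytes are known sources of it. F13a1 (chromosome 13, 36867178 to 37050244, minus strand) measured 86.9, 78.3 and 71.6 CPM in E12 DKO, against 31.8, 31.3 and 29.2 CPM in E12 WT. The 3 wild-type libraries, E12 WT 1 included, agreed closely and all lay below the knockouts. E12 DKO was 2.57-fold higher (log2 1.36 ± 0.21, edgeR adjusted p = 0.0366). The direction held in every alternative, from 1.29 to 1.66, but the call was lost in 10 of 21. They were the omission of E12 DKO 1, 2 or 3 (edgeR adjusted p = 0.2, 0.161 and 0.137), of E12 WT 3 (0.0773), E18 DKO 1 or 3 (0.0539 and 0.0537) and E18 WT 1 or 2 (0.0606 and 0.0526), a replicate block (0.0707), and a fit of these 2 groups alone (0.153).

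At E18 the F13a1 libraries measured 46, 59 and 63.2 CPM in DKO and 61.5, 59 and 99.1 CPM in labelled WT. These overlapped, with a difference of -0.38 ± 0.21 (edgeR adjusted p = 0.159; -0.76 and 0.0175 with library size alone). E18 DKO lay below E12 DKO in all libraries, at -0.49 ± 0.21 (edgeR adjusted p = 0.0742), and passed the test in 4 of 21 alternatives. These were library size alone (-0.85, adjusted p 0.0094), the fit of these 2 groups (-0.49, 0.0257), and the omission of E18 WT 3 alone (-0.50, 0.0244) or with E12 WT 1 (-0.50, 0.0134). Labelled E18 WT was 2.38-fold above E12 WT (log2 1.25 ± 0.21, edgeR adjusted p = 0.0222), the single call of the 9 genes in that comparison. It missed the threshold without E12 WT 2 or 3 (0.0634 and 0.0709), without E18 WT 1 or 3 (0.0592 and 0.0727), with the replicate block (0.0614) and in the fit of those 2 groups alone (0.152).

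Macrophage markers moved in more than one way beside F13a1. The 12 markers summed to 993 to 1432 CPM in E18 DKO, 412 to 552 in labelled E18 WT, 454 to 478 in E12 DKO and 397 to 723 in E12 WT. At E18, DKO over labelled WT, 7 of the 12 were higher and 2, Mrc1 and Adgre1, lower, where 20.5% of all tested genes were higher and 21.8% lower. Adgre1, which encodes F4/80, measured 2.03, 5.8 and 3.87 CPM in E18 DKO, against 6.6, 8.35 and 9.52 CPM in labelled E18 WT. In E12 DKO it measured 6.97, 8.24 and 6.62 CPM, against 2.73, 2.39 and 1.59 CPM in E12 WT. Other macrophage markers ran both ways at E12. Mrc1 was at 121 to 134 CPM in E12 DKO and 57 to 115 CPM in E12 WT. In the same order, Lyz2 was at 9.24 to 10.7 and 5.65 to 6.85 CPM, and Mertk at 43.3 to 56 and 28.4 to 41.2 CPM. Like F13a1 and Adgre1, these genes were higher in every E12 DKO library. Csf1r averaged 173 ± 10.2 CPM in E12 DKO and 280 ± 169 CPM in E12 WT (SD, n = 3). The Csf1r groups overlapped, with E12 WT 1 at 474 CPM. Cd68 averaged 9.93 ± 1.15 CPM in E12 DKO and 24.5 ± 14.4 CPM in E12 WT, without overlap. At E12 the groups did not overlap for 5 of the 12 markers. Among all tested genes this share was 30.1% (15.7% higher and 14.4% lower in E12 DKO). The median log2 difference of the 12 markers at E12 was 0.04, against -0.08 over all tested genes. At E12, 0 of the 12 markers passed edgeR's test (3 at an unadjusted p under 0.05), 0 passed limma voom and 1 passed the DESeq2 test. Of all tested genes, 0.353% passed edgeR's test and 24.3% had an unadjusted p under 0.05. Adgre1 itself was at 1.69 ± 0.37 (edgeR adjusted p = 0.0703). In bulk RNA, fewer cells of a type and less RNA per cell cannot be told apart, and the part of these cells in the F13a1 values was not tested. The 9 platelet and megakaryocyte markers summed to 39.8 to 50.5 CPM in E12 DKO and 90.9 to 201 in E12 WT, the opposite direction from F13a1. Singly, 0 of the 9 passed edgeR's test at E12 (2 at an unadjusted p under 0.05), against 0.353% and 24.3% of all genes. Groups did not overlap for 1 of the 9, against 30.1% of all genes. The part of these cells in the F13a1 values was not tested either.

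**Figure D4:**
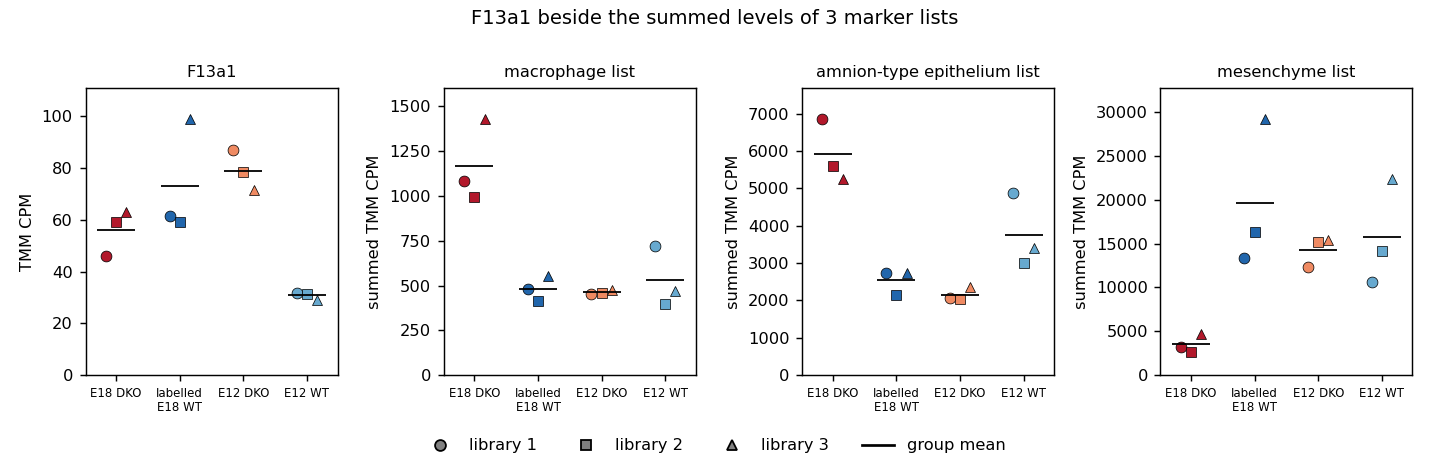
F13a1 in CPM beside the summed CPM of 12 macrophage, 11 amnion-type epithelial and 7 mesenchymal markers (vertical axes from 0) in the 12 libraries. Points are libraries and bars group means; the macrophage sum is at 993 to 1432 in E18 DKO and the F13a1 level is lowest in E12 WT.

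Summed levels of epithelial and mesenchymal markers also differed between groups, while single epithelial markers went both ways. Amnion-type epithelial markers summed to 5259 to 6870 CPM in E18 DKO, 2159 to 2731 in labelled E18 WT, 2035 to 2373 in E12 DKO and 4888, 2992 and 3397 in E12 WT libraries 1, 2 and 3. Of 11, 5 were higher and 3 lower in E18 DKO than in labelled E18 WT, against 20.5% and 21.8% of all genes. Krt8, Krt18, Krt19, Epcam and Krt14 were the higher ones, and Gabrp, Tfap2a and Krt5 the lower ones. The median log2 difference of the 11 markers was 0.37, against -0.04 over all tested genes. Mesenchymal markers summed to 2639 to 4749 CPM in E18 DKO, against 13336 to 29254 in labelled E18 WT and 12363 to 15392 in E12 DKO, and 10675 to 22388 in E12 WT. Of 7, 1 was higher and 5 were lower in E18 DKO than in labelled E18 WT, against the same shares of all genes. No marker of the macrophage, endothelial, epithelial or mesenchymal lists was at 0 in a whole group. Their part in the changes of F3, Plaur and Tfpi2 was not tested.

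Counted over the 9 genes, 3 passed the test for E18 DKO over labelled E18 WT, where 42.3% of all tested genes did. For E18 DKO over E12 DKO, 4 of 9 passed, against 46% of all genes. The members' shares are thus near those of the whole transcriptome in both. At E12, 1 of 9 passed, against 0.353% of all genes, and for labelled E18 WT over E12 WT 1 of 9, against 0.953%. Groups did not overlap for 3 of 9 genes at E18 (56.9% of all genes), for 5 of 9 between the DKO stages (67.2%), for 2 of 9 at E12 (30.1%) and for 1 of 9 between the WT groups (17.9%). The median log2 fold change of the 9 genes was -0.21 at E18, 0.52 between DKO stages, -0.24 at E12 and 0.01 between the WT groups, where the medians of all tested genes were -0.04, -0.02, -0.08 and -0.05.

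The difference between the genotype effects, DKO minus WT at E18 less DKO minus WT at E12, passed the test for 5 of the 9 genes, against 41.9% of all genes. It was positive for F3, Plaur and Plau and negative for Tfpi2 and F13a1. The size for F3 and Plaur depended on E12 WT 1: without it, the difference was 3.14 for F3, against 4.73 with all libraries, and 2.73 for Plaur, against 4.64, with both still called.

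Per kilobase, the order of the 9 genes differed between groups. In E18 DKO mean levels ran from Plaur (63.5 CPM per kb) and F3 (41.8) through Tfpi (32.2), F13a1 (14.3) and Plau (10.7) to Thbd (6.46), Tfpi2 (2.82), Serpine2 (2.79) and Plat (0.949). In labelled E18 WT they ran from Tfpi (39.6 CPM per kb), F13a1 (18.6) and Tfpi2 (13.1) through Plaur (7.94), F3 (7.01) and Plau (6.55) to Thbd (3.83), Serpine2 (3.23) and Plat (1.29). Tfpi led in labelled E18 WT, and Plaur in E18 DKO.

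The rest of the system was read from 50 genes in 4 lists, of which 44 were tested. In E18 DKO over labelled E18 WT, 14 were higher and 11 lower, where 42.3% of all tested genes were called. Over E12 DKO 14 were higher and 13 lower, where 46% of all tested genes were called. At E12, DKO over WT, 0 passed edgeR's test (7 at an unadjusted p under 0.05), 0 passed limma voom and 4 passed the DESeq2 test. Between the WT groups 0 passed edgeR's test (8 unadjusted), 0 limma voom and 3 the DESeq2 test. Of all 18153 tested genes, edgeR called 0.353% at E12 and 0.953% between the WT groups. At an unadjusted p under 0.05 the shares were 24.3% and 18.1%. The DESeq2 test called 2085 and 1223 of all genes. The 2 comparisons that involve E18 DKO share those 3 libraries.

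The list of plasma-type coagulation proteins also holds the vitamin K enzymes Ggcx and Vkorc1. Of its 17 tested genes, 2 were higher and 5 lower in E18 DKO than in labelled E18 WT. Over all tested genes, 20.5% were higher and 21.8% lower. F13b, which encodes the carrier B subunit of factor XIII, measured 0.989, 1.54 and 3.49 CPM in E18 DKO, against 18.7, 26.8 and 10.5 CPM in labelled E18 WT. All E18 DKO libraries lay below every labelled E18 WT library for F13b (log2 -3.22 ± 0.51, edgeR adjusted p = 0.000797), while F13a1, its partner subunit, did not pass at E18. F10 (factor X) and F5 (its cofactor factor V) were lower too, at -3.11 and -2.58. F2, prothrombin, was higher at 0.95 ± 0.32 (edgeR adjusted p = 0.0332), a call lost without E18 DKO 1, 2 or 3 (0.0613, 0.0903 and 0.054), E18 WT 2 or 3 (0.0731 and 0.109) and with library size alone (0.125).

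Among anticoagulants and thrombin receptors, 5 of 12 were higher and 2 lower, against 42.3% of all tested genes called in either direction. Procr, the endothelial receptor that presents protein C to thrombomodulin, measured 200, 549 and 667 CPM in E18 DKO, against 8.59, 9.87 and 37.1 CPM in labelled E18 WT. It was the widest rise in the lists (log2 4.67 ± 0.73, edgeR adjusted p = 0.000725; 5.82 over E12 DKO). Proc, which encodes protein C, was higher by 2.13, and Serpinc1, antithrombin, was lower (log2 -2.99, edgeR adjusted p = 0.000258).

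The list of plasminogen, its inhibitors and binders also holds the proteases St14 and Hpn. Of its 12 tested genes, 4 (St14 included) were higher and 4 (Hpn included) lower, again against 42.3% of all genes called. Plg, the plasmin precursor, measured 23.4, 66.3 and 63.2 CPM in E18 DKO, against 228, 226 and 133 CPM in labelled E18 WT (log2 -1.94 ± 0.38, edgeR adjusted p = 0.00252). Serpinf2, the plasmin inhibitor antiplasmin, was lower by a wider margin, at -3.73 ± 0.47 (edgeR adjusted p = 0.000248). Cpb2, whose product protects fibrin from plasmin, measured 0.22, 0 and 0 CPM in E18 DKO, against 2.3, 3.08 and 1.76 CPM in labelled E18 WT. S100a10, part of a cell-surface plasminogen receptor, was higher at 1.86 ± 0.25 (edgeR adjusted p = 0.000391). Serpinb2, an inhibitor of urokinase, stayed at or under 0.817 CPM in all libraries other than E12 WT 1, where it was at 5.46 CPM.

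All 3 tested members of the other transglutaminases were higher in E18 DKO than in labelled E18 WT, where 20.5% of all genes were higher. Tgm2, tissue transglutaminase, measured 992, 889 and 629 CPM in E18 DKO, against 136, 127 and 96 CPM in labelled E18 WT (log2 2.80 ± 0.30, edgeR adjusted p = 0.000134) and 153, 149 and 225 CPM in E12 DKO. Tgm1 was higher by 1.16 and Tgm4 by 1.09 (edgeR adjusted p = 0.000438 and 0.0119). The Tgm4 call was lost with library size alone (0.71, adjusted p 0.0581).

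**Figure D5:**
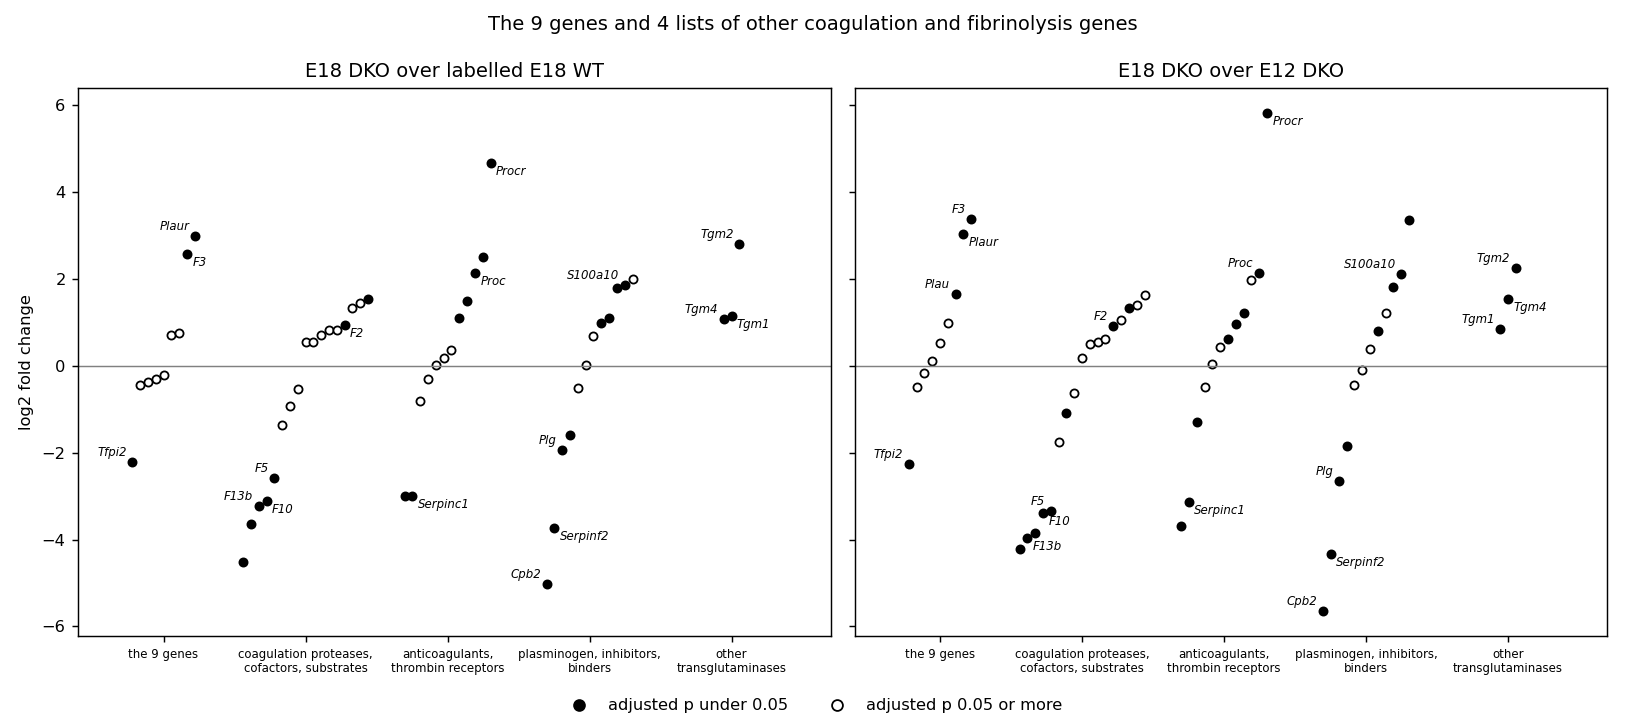
Log2 fold change (vertical axis) of the 9 genes and of 44 other coagulation, anticoagulant, plasmin and transglutaminase genes, for E18 DKO over labelled E18 WT and over E12 DKO. Filled points have an edgeR adjusted p under 0.05; in the first panel they are 2 higher and 1 lower of the 9 genes, and 14 higher and 11 lower of the 44.

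Profiles over the 12 libraries were compared by the root mean square difference of log2(CPM + 0.5) after centring, among 11134 genes with a mean of at least 5 CPM. F3 and Plaur were the closest pair of the 9, at 0.46. The nearest other genes were Serping1 (0.40) and Cav2 (0.43) for F3, Mical2 (0.29) and Ifnlr1 (0.31) for Plaur, and Nme4 (0.20) for Tfpi2. For F13a1 they were Sesn3 (0.27) and Zfp125 (0.28), and for Plau Flt1 (0.22) and Gata6 (0.23). Tfpi had Golga3 (0.13) and Scamp1 (0.14), Thbd had Psap (0.27) and Cdc42se2 (0.28), Serpine2 had Prkch (0.28) and Folr2 (0.32), and Plat had Shroom4 (0.45) and Gata2 (0.47). For scale, the spread of each gene about its own mean was 1.5 for F3, 1.46 for Plaur, 1.00 for Tfpi2 and 0.21 for Tfpi, so a small distance means little for Tfpi.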

How the data were processed

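RNA from frozen, ground membranes was made into stranded mRNA libraries, per the labels' protocols. The deposited values are raw gene counts, not normalised. Per the submitters' processing notes, the tools included Trimmomatic 0.36, STAR 2.4.2a and Subread 1.5.0, with the build GRCm38. Per the file headers, featureCounts used strand option 2 and the Ensembl release 86 annotation, and left out reads that map to more than one place. Counts of 11 libraries came from their own files, each equal to 1 column of the series table, and E12 DKO 1 from that table. The E18 WT files and columns are numbered 2 to 4 and the sample titles 1 to 3; each file was joined to the sample it was deposited under, and library numbers are those of the titles. None of the 9 genes overlaps another annotated gene. Symbols were found for 48349 of 48795 gene IDs.

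Genes were filtered with filterByExpr. TMM scaling and edgeR 4.0.16 (R 4.3.3) quasi-likelihood tests used 1 mean per group over 12 libraries (residual degrees of freedom 8, common biological variation coefficient 0.373), with Benjamini-Hochberg adjustment over 18153 genes and a threshold of 0.05 ("passed", "called", "higher" and "lower" of tested genes refer to it). Alternatives were limma voom 3.58.1, the DESeq2 1.42.0 test, its size factors, unscaled library sizes, no filter, 1 CPM in 3 libraries, the compared groups alone, a replicate block, each library omitted, and E12 WT 1 with E18 WT 3 omitted. The fits were also run on simulated counts, and the outcome is not reported here. Each SE of an edgeR log2 fold change is its absolute value over the square root of the test's F statistic. Upstream sequences are RefSeq's. Among other genes of each list, up to 3 called ones with the lowest adjusted p in a comparison were named, beside Serpinb2, Plg and F2, and up to 2 nearest profiles per member; some genes that this names are not reported here. The members and lists were chosen with earlier results of these data known. Binomial and floor intervals are not used for the 9 genes, whose lowest count was 43. Figures used matplotlib 3.10.9.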

Additional observations from a re-analysis of the deposited data

Results flagged for a closer look

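For 5 of the 9 genes the difference between DKO and WT was itself different at E18 and at E12, by edgeR's test of that difference. In log2 units it was 4.73 ± 1.05 for F3 (adjusted p = 0.00504), 4.64 ± 1.02 for Plaur (0.00468), 1.5 ± 0.54 for Plau (0.043), -2.22 ± 0.50 for Tfpi2 (0.00546) and -1.74 ± 0.30 for F13a1 (0.00126). The share of all tested genes that passed this test was 41.9%. The F3, Plaur, Tfpi2 and F13a1 calls held in all 20 alternatives. The Plau call was lost in 11 of 20: without any single E12 DKO, E18 DKO, or E18 WT 1 or 2 library, without E12 WT 1 or 3, and with library size alone (0.81, adjusted p 0.223). Both stages enter this test through the labels, and the labelled E18 WT libraries and E12 WT 1 carry beta-globin proportions that do not match theirs. The part of this in the 5 values was not tested, other than by leaving libraries out.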

How the results depend on the processing

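Of 936 values of the 9 genes recomputed under the alternatives, 845 kept their direction and their side of the threshold, 29 lost a call, 15 gained one and 47 changed sign, all of the last among uncalled values. The cause of each change was not tested. The number of called genes at E12 (64) was 2085 with the DESeq2 test (2 of the 9 genes called), 5 with the replicate block (0 of the 9), 0 in the fit of these 2 groups alone (0 of the 9; 3358 genes at an unadjusted p under 0.05), 3753 without E12 WT 1 and E18 WT 3, and 1 to 3199 with 1 library omitted (0 to 1 of the 9), the 3199 without E12 WT 1. Between the WT groups (173) it was 272 with library size alone, 1223 with the DESeq2 test, 77 with the block (0 of the 9), 56 in the fit of the 2 groups (0 of the 9), 1028 without the 2 libraries, and 35 to 1684 with 1 omitted (0 to 1 of the 9). At E18, library size alone called 5 of the 9 genes and moved the split of all calls to 2382 higher and 6015 lower, against 3725 and 3953; between the DKO stages it gave 2809 and 5947, against 4203 and 4146, at E12 41 and 14, against 17 and 47, between the WT groups 181 and 91, against 53 and 120, and for the difference 2187 and 6438, against 3921 and 3679. It moved the median of all genes to -0.41, -0.37, 0.22, 0.26 and -0.64 in these comparisons.

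Sign changes at E12 were Thbd 0.02, Serpine2 0.20 and Tfpi 0.22 with library size alone, and Plaur 0.27, Tfpi 0.08 and Tfpi2 -0.34 without the 2 libraries. With 1 library omitted, E12 values ran from -0.62 to 0.04 for Thbd, -1.34 to 0.36 for Plat, -2.09 to 0.27 for Plaur, -0.24 to 0.41 for Serpine2, -0.17 to 0.08 for Tfpi and -0.34 to 0.32 for Tfpi2. Between the DKO stages Plat was -0.23 with library size alone and -0.17 to 0.73 with 1 omitted. Between the WT groups the values were 0.04 (Plat) and 0.26 (Tfpi2) with library size alone, 0.20 (Plat), -0.03 (Plau) and 0.13 (Tfpi2) with limma voom, 0.06 (Tfpi2) with the block, and -0.03 (Thbd), -0.32 (Plau) and 0.18 (Plaur) without the 2 libraries. With 1 omitted they ran from -2.05 to 0.24 for F3, -0.37 to 0.27 for Thbd, -0.66 to 0.91 for Plat, -0.54 to 0.45 for Plau, -2.07 to 0.29 for Plaur, -0.04 to 0.21 for Tfpi and -0.39 to 0.27 for Tfpi2. The difference was -0.27 for Plat with library size alone, 0.19 for Serpine2 without the 2 libraries, and with 1 omitted -0.77 to 0.91 for Plat and -0.60 to 0.03 for Serpine2.

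Same-numbered libraries did not deviate together (correlations of deviations from the group means -0.16 to 0.158), so the numbers were not taken as pairs. The E18 WT numbers are those of the sample titles; the deposited files of these 3 libraries carry other numbers, and a block by those was not run. The replicate block changed 2 calls among the 9 genes, those of F13a1 at E12 (1.36, adjusted p 0.0707) and between the WT groups (1.23, 0.0614).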

Other observations

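E12 WT 1 held 14.8% embryonic beta-globin and was the library outside E18 DKO nearest to it for F3, Plaur and Tfpi2. Its F3 level was 104 CPM, its Plaur level 157 CPM and its Tfpi2 level 10.5 CPM, against 86.5 to 129, 147 to 182 and 3.41 to 6.59 CPM in E18 DKO. Its Plau level of 17.7 CPM lay between the groups, and its F13a1 level of 31.8 CPM was that of the other E12 WT libraries.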
